A study of Mus musculus with 13 samples.

Results

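The genes described here code for the subunits of protein kinase A (PKA), the protein kinase C (PKC) isoforms and the kinases of the mitogen-activated protein (MAP) kinase cascade, with the AMP-activated and cGMP-dependent kinases that share the Prka and Prkg symbols. Every probe set that the array's annotation assigned to 1 gene was taken where the symbol began with Prka, Prkc, Prkg, Mapk, Map2k, Map3k or Map4k. This gave 72 of the 12488 probe sets of the array, for 48 of the 8251 genes that have a probe set of their own, in 16 families.

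Expression was measured in total RNA of whole brain hemispheres on Affymetrix MG-U74Av2 arrays, which read each gene with 1 or more sets of short oligonucleotide probes. Of the 13 arrays, 3 were from treated R6/2 mice, 4 from untreated R6/2 mice, 3 from treated wild type mice and 3 from untreated wild type mice. R6/2 mice, a model of Huntington's disease, carry a transgene with the first exon of human huntingtin and an expanded CAG repeat under the human huntingtin promoter. The triple treatment was tacrine (2.7 mg/kg/day from week 5), moclobemide (10 mg/kg/day) and creatine (1% w/v in wet mash), and because the labels list these drugs for all samples, untreated ones included, treatment was taken from the sample titles. Tacrine blocks cholinesterases, moclobemide blocks a monoamine oxidase, and creatine is a substrate of creatine kinase. Harvest in week 8 is stated for 1 untreated wild type sample only, and sex and strain background are not stated. Nothing in the labels says that the arrays of a group came from separate animals, so the p-values measure only the spread between these samples.

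PKA is held inactive by its regulatory subunits until cyclic AMP binds them and frees the catalytic subunits, and in striatal projection neurons it acts downstream of dopamine receptors. PKC isoforms differ in what switches them on. Conventional isoforms need calcium and diacylglycerol, calcium-independent isoforms need diacylglycerol alone, and atypical isoforms need neither. In the MAP kinase cascade each tier phosphorylates the next, so that MAP4K enzymes act on MAP3K enzymes, MAP3K enzymes activate MAP2K enzymes, and these activate the ERK, JNK and p38 kinases. These kinases carry growth factor, stress and synaptic signals to the nucleus.

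The kinase genes that passed the test for genotype in both treatment states were Prkcd (PKC delta, a calcium-independent isoform with high transcript levels in the thalamus) and Prkcb (PKC beta, a conventional isoform of forebrain neurons). Their promoters, 250 bases before to 50 bases after the annotated start in RefSeq on build GRCm38.p6, are shown because both genes had a lower signal in R6/2 mice. Capitals mark GGGCGG, the letters of a GC box, searched on both strands. The Prkcd window is chr14:30626159-30626458 on the minus strand, and the Prkcb window is chr7:122288875-122289174 on the plus strand.
Prkcd: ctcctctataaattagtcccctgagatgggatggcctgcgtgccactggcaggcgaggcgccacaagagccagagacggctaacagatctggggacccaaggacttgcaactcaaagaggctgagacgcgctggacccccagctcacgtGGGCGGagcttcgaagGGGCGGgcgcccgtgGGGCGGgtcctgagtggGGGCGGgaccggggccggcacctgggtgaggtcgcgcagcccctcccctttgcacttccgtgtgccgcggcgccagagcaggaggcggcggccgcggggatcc
Prkcb: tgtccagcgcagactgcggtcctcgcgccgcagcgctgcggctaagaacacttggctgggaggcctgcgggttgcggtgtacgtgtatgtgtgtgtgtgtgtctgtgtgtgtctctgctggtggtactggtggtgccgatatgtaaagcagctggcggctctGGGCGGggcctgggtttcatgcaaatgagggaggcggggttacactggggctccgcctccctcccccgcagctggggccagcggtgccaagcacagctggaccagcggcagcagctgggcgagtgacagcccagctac
The Prkcd window held 4 GGGCGG matches and 1 TATAAA match with a GC content of 69.3%, and the Prkcb window held 1 GGGCGG match with a GC content of 65.3%. RefSeq lists a second Prkcd start, chr14:30610261-30610560, whose window held none of the motifs searched and had a GC content of 51.3%. Neither CCAAT nor TGACGTCA (the cyclic AMP response element) occurred in any of the 3 windows. Among 32851 windows of the same length, 35.7% held GGGCGG, 37.4% CCAAT, 1.79% TGACGTCA and 13.6% TATAAA on either strand. These matches describe the sequences and show nothing of factor binding.

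The arrays had median signals between 39.6 and 45.1. Untreated R6/2 arrays 2 and 3 stood apart from the others, with scores of 25.4 and 45.7 on the first principal component (33.9% of the variance) against at most 4.09 on the other 11, and the kinase and pathway genes called in untreated mice are given with and without them. On untreated R6/2 arrays 2, 3 and 4 the 66 control rows equalled 1.2 times those of treated R6/2 array 1, treated R6/2 array 3 and untreated R6/2 array 1 in every row within 0.05, whereas 89, 63 and 79 of 12422 gene probe sets did so, so that the control rows gave no separate measure for these arrays. Of the 72 kinase probe sets, 50 (69.4%) of 39 genes passed the filter on mean signal (at least 24.9), compared with 7453 of 12422 gene probe sets overall. The other 22 had medians over all arrays of 0.5 to 24.8 and were not tested, and they were further probe sets of tested genes or belonged to 9 genes with no probe set above the filter. These 9 were Map3k1, Map3k2, Map3k6, Map3k11, Map3k12, Mapk7, Mapk13, Prkch and Prkg2. Signals of different probe sets are not compared with each other, since probes differ in brightness.

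In untreated mice, 7 of the 50 kinase probe sets fell in R6/2 mice and none rose (limma, Benjamini-Hochberg adjusted p under 0.05). Over all 7453 kept probe sets, 11.9% passed the test, 6.41% lower and 5.49% higher, so that the share of kinase probe sets called in either direction (14.0%) was near the background. At an unadjusted p under 0.05 there were 19 of 50, against 30.2% of all. The 7 were both probe sets of Prkcd and 1 each of Prkcb, Prkce, Prkar1b, Prkaca and Mapk9. Without untreated R6/2 arrays 2 and 3 the background was 2.19% (1.61% lower), and 3 kinase probe sets passed, the pair of Prkcd and the same one of Prkcb. In treated mice 4 of 50 passed, again all lower in R6/2 mice, both probe sets of Prkcd and both of Prkcb, against a background of 0.792% (0.711% lower). At an unadjusted p under 0.05 there were 8 of 50, against 9.19% of all. No kinase probe set passed for treatment in either genotype or for the interaction.

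**Figure D1:**
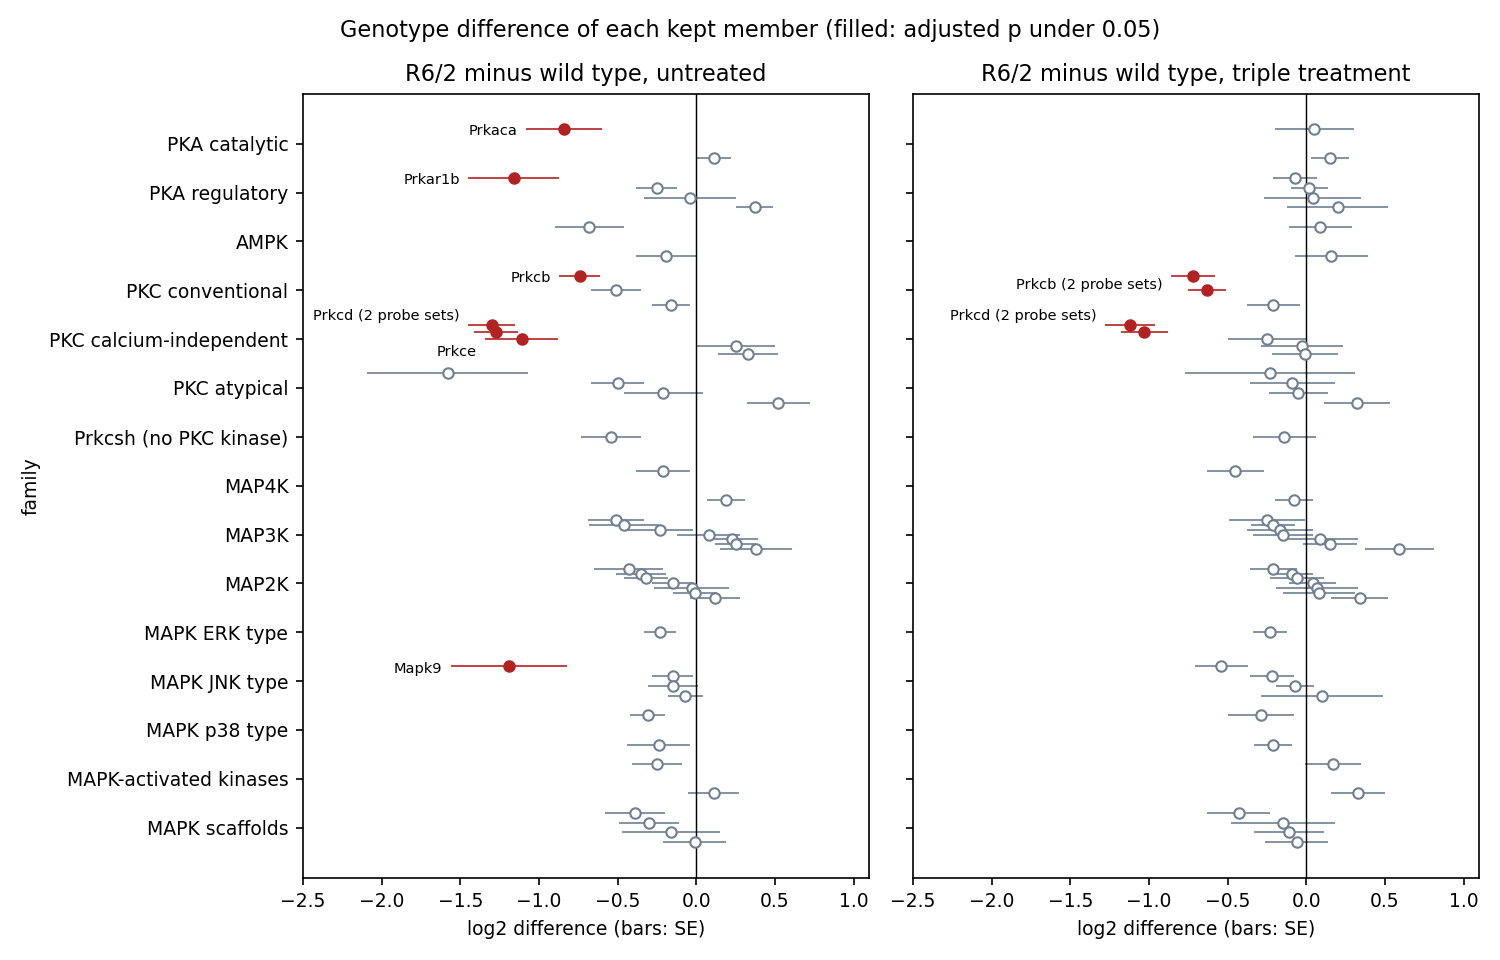
Log2 difference between R6/2 and wild type mice of each of the 50 kept probe sets, by family, in untreated mice (left) and under the triple treatment (right); points are estimates, bars are standard errors and filled points have an adjusted p under 0.05. In the left panel 7 points in 4 PKC and PKA families and the JNK family are filled, and in the right panel only the 2 probe sets each of Prkcd and Prkcb are.

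Prkcd was lower in every R6/2 array than in any wild type array. Probe set 104531_at read 160.8, 142.3 and 154.4 in treated R6/2 mice and 131.6, 151.6, 107.8 and 163.2 in untreated R6/2 mice. The same probe set read 320.9, 314.6 and 359.8 in treated wild type mice and 281.5, 376.2 and 359.9 in untreated wild type mice. The R6/2 and wild type ranges were far apart in both treatment states, and within a genotype the treated and untreated values overlapped. The difference on the log2 scale was -1.30 ± 0.15 (SE) without treatment, 0.407 times the wild type level (adjusted p = 0.000256), and -1.12 ± 0.16 with treatment, 0.460 times (adjusted p = 0.00348).

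The second Prkcd probe set, 160698_s_at, gave the same picture. Its signals were 183.1, 185.3 and 231.7 in treated R6/2 mice and 192.3, 158.5, 139.6 and 187.7 in untreated R6/2 mice, against 462.4, 413.2 and 348.3 in treated and 423.2, 380.4 and 410.1 in untreated wild type mice. No R6/2 value reached the lowest wild type value. The log2 differences were -1.27 ± 0.14 in untreated mice (adjusted p = 0.000256) and -1.03 ± 0.15 in treated mice (adjusted p = 0.00491). Both Prkcd probe sets passed under each of the 24 alternative settings and left-out arrays in both comparisons. Without untreated R6/2 arrays 2 and 3 the untreated differences were -1.20 (adjusted p = 0.00175) and -1.09 (adjusted p = 0.00208).

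Prkcb was read by 2 probe sets that differed in untreated mice. On 99511_at, treated R6/2 mice had 164.7, 148 and 136 and untreated R6/2 mice 140, 179.5, 152.2 and 156.5, whereas treated wild type mice had 271.2, 255 and 215.7 and untreated wild type mice 285.8, 237 and 263. All R6/2 values lay below all wild type values. The log2 difference was -0.74 ± 0.13 in untreated mice (adjusted p = 0.00511) and -0.72 ± 0.14 in treated mice (adjusted p = 0.0197). The untreated difference passed in all 24 alternatives, and the treated one in 19, losing the call when treated wild type array 1 or 2, or any one treated R6/2 array, was left out (adjusted p 0.0553 to 0.122).

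On 99510_at, Prkcb read 1046.7, 1222 and 1051.2 in treated R6/2 mice and 1194.6, 1235.9, 1566.7 and 1157.6 in untreated R6/2 mice, with 1710.4, 1597.4 and 1832.3 in treated and 1364.9, 1497.3 and 1431.6 in untreated wild type mice. In the untreated mice array 3 of the R6/2 group exceeded every wild type array and the groups overlapped, while in treated mice they did not. The log2 difference was -0.16 ± 0.12 in untreated mice (adjusted p = 0.369) and -0.63 ± 0.12 in treated mice (adjusted p = 0.0232, passed in 16 of 24 alternatives). The treated call was lost without any one treated wild type array or without treated R6/2 array 1 or 3 (adjusted p 0.0609 to 0.137), and under 3 other settings (0.0513 to 0.069). The interaction estimate for this probe set was -0.47 ± 0.17 (adjusted p = 0.316), so the treated and untreated differences were not shown to differ.

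**Figure D2:**
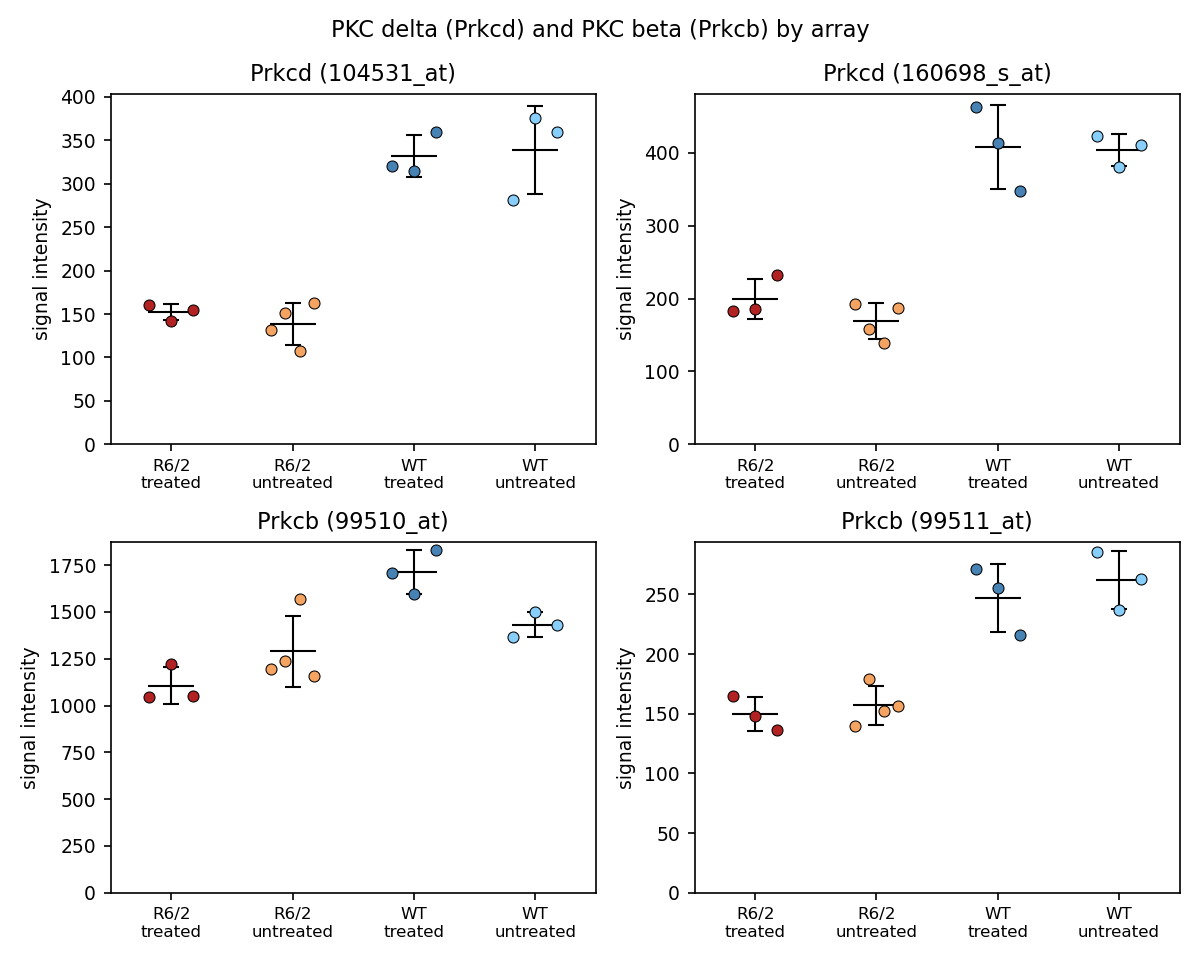
Signal intensity of the 2 Prkcd and 2 Prkcb probe sets on each of the 13 arrays; points are arrays, horizontal lines are group means and bars are SD (n = 3, 4, 3 and 3). For Prkcd and for Prkcb 99511_at every R6/2 point lies below every wild type point, and for Prkcb 99510_at untreated R6/2 array 3 at 1566.7 lies above the untreated wild type arrays.

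When the genotype difference was averaged over treatment, 5 kinase probe sets fell (background 6.61%, 4.04% lower; 19 of 50 at an unadjusted p under 0.05, against 24.0% of all), and all 5 were of PKC genes. The estimates were -1.21 ± 0.11 and -1.15 ± 0.11 for Prkcd (adjusted p = 1.73e-05 and 1.8e-05), -0.73 ± 0.09 and -0.40 ± 0.09 for Prkcb (adjusted p = 0.00036 and 0.0126) and -0.68 ± 0.17 for Prkce probe set 94161_at (adjusted p = 0.0286). The Prkcd and Prkcb estimates passed in all 23 alternatives, and that of Prkce in 14. The Prkce call was lost without any one untreated wild type array, treated wild type array 1 or 2, untreated R6/2 array 2, or treated R6/2 array 1 or 3 (adjusted p 0.0504 to 0.078), and without the filter on dim probe sets (0.083).

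Across the 12 tested probe sets of the 7 PKC kinase genes above the filter, 9 estimates were below 0 in untreated mice with a median of -0.50 on the log2 scale, and 11 were below 0 in treated mice with a median of -0.22. Over all kept probe sets 45.7% were below 0 with a median of 0.04 in untreated mice, and 43.9% with a median of 0.03 in treated mice. Both genotype comparisons called 4 of the 12, against backgrounds of 11.9% in untreated and 0.792% in treated mice. The calls were of Prkcd, Prkcb and Prkce in untreated mice and of Prkcd and Prkcb in treated mice. Probe sets of 1 gene are not separate genes, so these counts weigh Prkcd and Prkcb more than once.

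Prkce, PKC epsilon, another calcium-independent isoform, had 2 probe sets that did not move together. Probe set 94161_at read 160.2, 181.9 and 173.6 in treated R6/2 mice, 142.8, 93.6, 65.8 and 133.1 in untreated R6/2 mice, 223.9, 249.5 and 153.6 in treated wild type mice and 254.8, 200.5 and 222.2 in untreated wild type mice. Arrays 2 and 3 held the lowest untreated R6/2 values, and all 4 lay below the wild type range. The untreated log2 difference was -1.11 ± 0.23 (adjusted p = 0.0127), and without arrays 2 and 3 it was -0.71 (adjusted p = 0.0699). In treated mice the groups overlapped and the difference was -0.25 ± 0.25 (adjusted p = 0.891). The other probe set, 103223_at, had differences of 0.25 ± 0.25 and -0.03 ± 0.26, with overlapping groups in both states, and its highest value of all, 686.5, was on untreated R6/2 array 3.

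Of the remaining PKC genes none passed. Prkca (PKC alpha, conventional) averaged 60.6 ± 10.3 in treated and 70.3 ± 5.06 in untreated R6/2 mice (SD, n = 3 and 4), and 70.3 ± 14.2 in treated and 99.7 ± 4.06 in untreated wild type mice (n = 3 each). Its untreated groups did not overlap, with a log2 difference of -0.51 ± 0.16 (adjusted p = 0.0555). The treated difference was -0.21 ± 0.17 (adjusted p = 0.841). The 3 probe sets of Prkcz, the atypical PKC zeta, disagreed in sign in untreated mice, at -1.58 ± 0.51, -0.50 ± 0.17 and 0.52 ± 0.20 (adjusted p = 0.0567, 0.073 and 0.0943). The first of these, 96571_at, read 4.3 on untreated R6/2 array 3 against 17.1, 18.2 and 37.9 on the others, and its difference was -0.98 without that array. Without arrays 2 and 3 the differences of the 3 probe sets were -0.82, -0.25 and 0.69. In treated mice they stood at -0.23, -0.05 and 0.32. Prkci (PKC iota) had -0.21 ± 0.25 in untreated and -0.09 ± 0.27 in treated mice, and the tested probe set of Prkcq (PKC theta) had 0.33 ± 0.19 and -0.01 ± 0.21. Prkcsh, which despite its symbol codes for the beta subunit of glucosidase II, a glycoprotein-trimming enzyme of the endoplasmic reticulum, had -0.54 ± 0.19 in untreated mice (adjusted p = 0.0711, and -0.23 without arrays 2 and 3) and -0.14 ± 0.20 in treated mice.

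Markers of brain cell types also differed by genotype, and their part in the PKC differences was not tested. The summed signal of 13 oligodendrocyte probe sets was 3738 to 5026 in treated and 3082 to 4046 in untreated R6/2 mice, against 5716 to 6775 in treated and 6100 to 6739 in untreated wild type mice. For neurons (12 probe sets) the sums were 9486 to 10257 and 9167 to 10307 in treated and untreated R6/2 mice, against 10302 to 11214 and 10598 to 10902 in treated and untreated wild type mice. Astrocyte sums (9 probe sets) were 2761 to 3226 and 2760 to 3342 in treated and untreated R6/2 mice, against 3397 to 3641 and 3360 to 3458 in treated and untreated wild type mice. Microglial sums (10 probe sets) ran from 1358 to 1520 over all R6/2 arrays and from 1170 to 1439 over all wild type arrays, endothelial sums (7) from 322 to 409 and 276 to 346, and blood sums (3) from 904 to 2146 and 995 to 3525. No marker probe set stood at 0 across a group. In these untreated mice 3 of 6 tested oligodendrocyte genes and 2 of 6 astrocyte genes fell on at least 1 probe set. So did 2 of 9 neuronal genes and 1 of 3 blood genes, while 1 neuronal and 1 of 7 microglial genes rose. None of 6 endothelial genes passed, and in treated mice no marker gene of any of these lists passed. By probe set, 6 of 12 oligodendrocyte, 2 of 9 astrocyte, 2 of 11 neuronal and 1 of 3 blood probe sets fell. Over all kept probe sets 6.41% were called lower and 5.49% higher in untreated mice, and 0.792% either way in treated mice. Without untreated R6/2 arrays 2 and 3, 2 of these 10 marker genes passed, Syp and Mobp. Oligodendrocyte estimates were below 0 on 11 of 12 probe sets in untreated and in treated mice, with medians of -0.54 and -0.51. Averaged over treatment, 4 of 6 oligodendrocyte genes (7 of 12 probe sets), 2 of 9 neuronal and 1 of 6 astrocyte genes fell. In that average 1 of 7 microglial genes rose and no blood or endothelial gene passed (background 6.61%, 4.04% lower). In whole tissue, fewer cells of a type and less RNA per cell cannot be told apart.

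Among PKA subunits, 2 of 6 tested probe sets fell in untreated R6/2 mice and none passed in treated mice (backgrounds 11.9%, 6.41% lower, and 0.792%). Prkar1b codes for the RI beta regulatory subunit, which is found mainly in neurons. Its probe set 101927_at read 927.2, 940.5 and 678.8 in treated R6/2 mice, 736.2, 450.5, 282.7 and 853 in untreated R6/2 mice, 656.5, 937.3 and 892.9 in treated wild type mice and 997.1, 1300.9 and 1283.8 in untreated wild type mice. Untreated R6/2 values all lay below the untreated wild type range, furthest on arrays 2 and 3, and the treated groups overlapped. The untreated log2 difference was -1.16 ± 0.29 (adjusted p = 0.0241), which became -0.58 (adjusted p = 0.116) without arrays 2 and 3. The call held in 18 of 24 alternatives. It was also lost without R6/2 array 2 or wild type array 2 or 3 of the untreated groups (adjusted p 0.0647 to 0.0916). The same happened without the filter on dim probe sets (0.079) and with only the arrays of the 2 groups in the fit (0.0736). The second probe set, 94944_at, had 1072.5, 1122.9, 907.8 and 1266.2 in untreated R6/2 mice against 1140, 1388.7 and 1351.6 in untreated wild type mice, which overlapped, with a difference of -0.25 ± 0.13 (adjusted p = 0.214).

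Prkaca, the C alpha catalytic subunit, read 392, 474.8 and 493.1 in treated R6/2 mice, 414.4, 284.5, 197.3 and 511.6 in untreated R6/2 mice, 459.8, 441.7 and 411.2 in treated wild type mice and 531.3, 589.8 and 663.6 in untreated wild type mice. Again arrays 2 and 3 were lowest, and the untreated genotypes did not overlap. The untreated difference of -0.84 ± 0.24 (adjusted p = 0.0373) was -0.36 (adjusted p = 0.181) without them and passed in 15 of 24 alternatives, and the treated difference was 0.05 ± 0.25. Leaving out any one untreated wild type array, or R6/2 array 2 or 3 alone, also ended the call (adjusted p 0.061 to 0.13).

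The other PKA subunits did not pass the test. Prkacb, the C beta catalytic subunit, had differences of 0.11 ± 0.11 in untreated and 0.15 ± 0.12 in treated mice. For Prkar1a, the RI alpha subunit, untreated R6/2 mice had 1906.8, 2509, 2748 and 2164.9 against 1748, 1886.5 and 1742.5 in untreated wild type mice. These groups did not overlap, and R6/2 was the higher one, but the difference of 0.37 ± 0.12 missed the threshold (adjusted p = 0.0516) and was 0.18 (adjusted p = 0.305) without arrays 2 and 3. In treated mice the difference was 0.02 ± 0.12. Prkar2a (RII alpha) had -0.04 ± 0.29 and 0.20 ± 0.32 in untreated and treated mice.

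AMP-activated kinase senses low cellular energy, and neither of its subunits on the array passed. Prkag1, the gamma subunit that binds adenine nucleotides, read 81.4, 82 and 84.6 in treated R6/2 mice, 70.3, 80.8, 38.8 and 63.8 in untreated R6/2 mice, 81.9, 85.7 and 58.1 in treated wild type mice and 104.8, 107.1 and 84.1 in untreated wild type mice. Untreated genotypes did not overlap (-0.68 ± 0.22, adjusted p = 0.0567), while treated ones did (0.16 ± 0.23). Without untreated R6/2 array 3, which read 38.8, the untreated difference was -0.46 (adjusted p = 0.114). Prkab1, the scaffold beta subunit, had -0.19 ± 0.19 and 0.09 ± 0.20 in untreated and treated mice. The cGMP-dependent kinase gene Prkg2 had a single probe set below the filter, with a median signal of 2.7.

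**Figure D3:**
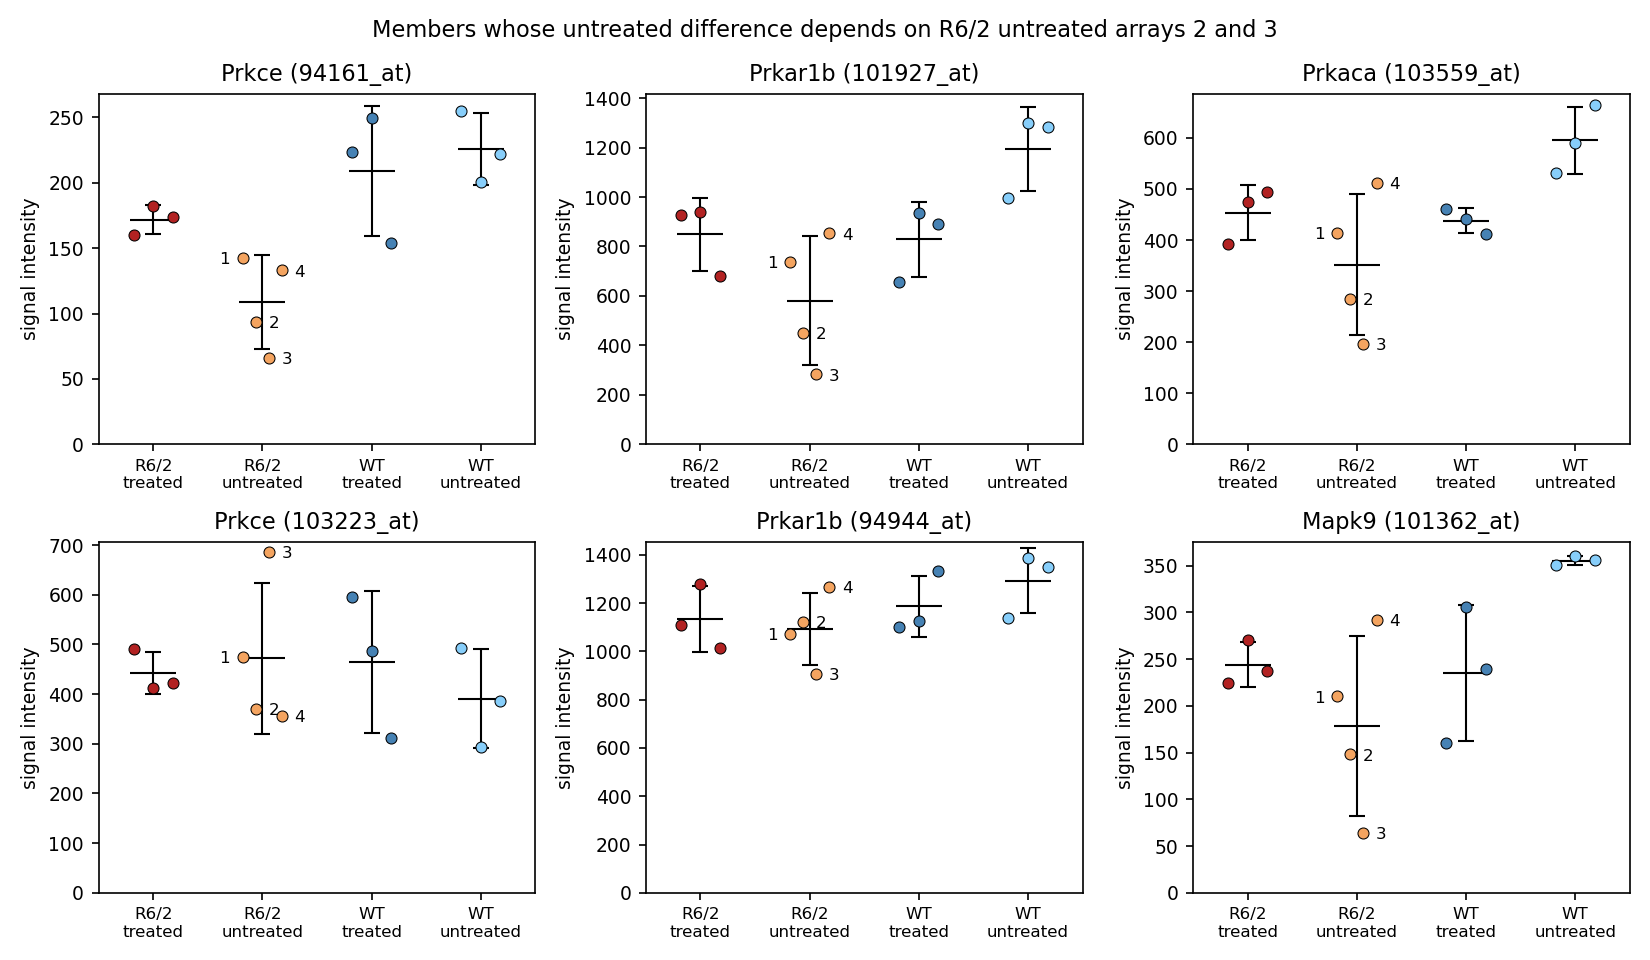
Signal intensity by array for the Prkce, Prkar1b, Prkaca and Mapk9 probe sets that passed in untreated mice, with the second probe sets of Prkce (103223_at) and Prkar1b (94944_at); lines are group means, bars are SD and numbers mark the 4 untreated R6/2 arrays. In each of the 4 passing probe sets array 3 is lowest and array 2 next lowest in the untreated R6/2 group, and in Prkce 103223_at array 3 is highest.

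The MAP kinase cascade held most of the members. Of 29 tested probe sets of 24 genes, 1 fell in untreated R6/2 mice (background 6.41% lower) and none passed in treated mice (background 0.792%). Estimates were below 0 for 22 of the 29 in untreated mice, with a median of -0.16 and a range of -1.19 to 0.38, and for 19 in treated mice, with a median of -0.09 and a range of -0.54 to 0.59. Over all kept probe sets 45.7% and 43.9% were below 0 in untreated and treated mice.

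The one that fell was Mapk9, which codes for JNK2, a stress-activated kinase. It read 224.5, 270.5 and 237.1 in treated R6/2 mice, 210, 148, 64.1 and 292.3 in untreated R6/2 mice, 160.7, 305.2 and 239.5 in treated wild type mice and 350.2, 360.3 and 355.6 in untreated wild type mice. The untreated wild type arrays lay close together above all others, and R6/2 array 3 was far below the rest of its group. The untreated difference of -1.19 ± 0.37 (adjusted p = 0.0479) passed in 9 of 24 alternatives. It was -0.52 (adjusted p = 0.227) without R6/2 arrays 2 and 3, and leaving out either of these or any one untreated wild type array alone also ended the call (adjusted p 0.0676 to 0.128), as did leaving out treated wild type array 2 or 3 or any one treated R6/2 array (adjusted p 0.0547 to 0.0634). In treated mice the difference was 0.10 ± 0.39.

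The other JNK genes showed smaller values. Mapk8 (JNK1) had -0.07 ± 0.11 in untreated and -0.07 ± 0.12 in treated mice. Mapk10 (JNK3, the isoform largely restricted to neurons) had -0.15 ± 0.13 and -0.22 ± 0.14 on its brighter probe set, 100470_at. Its probe set 161575_f_at read 80.1, 71.7 and 91.9 in treated R6/2 mice against 138.1, 112.3 and 104 in treated wild type mice, groups that did not overlap, with a difference of -0.54 ± 0.17 (adjusted p = 0.214). In untreated mice that probe set had -0.15 ± 0.16. The scaffolds that bind JNK kinases to kinesin also missed the threshold, with -0.30 ± 0.19 and -0.16 ± 0.31 in untreated mice for the probe sets of Mapk8ip1 and -0.39 ± 0.19 for Mapk8ip3. Without arrays 2 and 3 these were 0.0, -0.12 and -0.10. In treated mice they were -0.43, -0.15 and -0.06. Mapkbp1, a JNK-binding protein, had -0.01 and -0.11 in untreated and treated mice.

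Within the p38 and ERK branches, Mapk14 (p38 alpha) had -0.31 ± 0.11 in untreated mice (adjusted p = 0.0829) and -0.21 ± 0.12 in treated mice. Averaged over treatment it was -0.26 ± 0.08 (adjusted p = 0.0768), and -0.31 (adjusted p = 0.0282) without untreated R6/2 arrays 2 and 3. Mapk12 (p38 gamma) had -0.24 ± 0.20 and -0.29 ± 0.21 in untreated and treated mice. Mapk6, the atypical kinase ERK3, read 303, 335.9 and 289.8 in treated R6/2 mice and 298.2, 266.8, 310.4 and 271.4 in untreated R6/2 mice, against 359, 371.6 and 358.7 in treated and 330.8, 344.3 and 328.7 in untreated wild type mice. In each treatment state its genotypes did not overlap, yet the differences were small, -0.23 ± 0.10 in untreated and -0.23 ± 0.11 in treated mice, and did not pass (adjusted p = 0.151 and 0.543).

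Upstream, none of the 7 MAP2K, 7 MAP3K and 2 MAP4K probe sets passed for genotype. Map2k1, one of the kinases that activate ERK, had -0.01 ± 0.14 in untreated and -0.21 ± 0.15 in treated mice, and Map2k4, which activates JNK, had -0.35 ± 0.16 and 0.34 ± 0.18. Map3k5 (ASK1, activated by oxidative stress) had -0.51 ± 0.18 in untreated mice (adjusted p = 0.0707, and -0.23 without arrays 2 and 3) and -0.15 ± 0.19 in treated mice. The other MAP2K genes, Map2k2, Map2k3, Map2k5 and Map2k6, stood at -0.43 to 0.12 in untreated and -0.09 to 0.08 in treated mice. Map4k4 had 0.19 ± 0.12 and -0.08 ± 0.12 on its tested probe set, and Map4k1 -0.21 ± 0.17 and -0.45 ± 0.18. Map3k3, which had 3 tested probe sets, stood at 0.08 to 0.38 in untreated and -0.25 to -0.17 in treated mice. Map3k4, Map3k7 (TAK1) and Map3k8 (Tpl2) had 0.23, -0.46 and -0.23 in untreated mice and 0.15, 0.09 and 0.59 in treated mice. The MAP kinase-activated kinases Mapkapk2 (MK2, which p38 phosphorylates) and Mapkapk5 had -0.25 ± 0.16 and 0.11 ± 0.16 in untreated mice and 0.33 ± 0.17 and 0.17 ± 0.18 in treated mice.

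Counted over all 50 kinase probe sets, 38 estimates were below 0 in untreated mice (45.7% of all kept probe sets were), and the median was -0.22. In treated mice 32 were below 0 (43.9% of all), with a median of -0.07. Groups without overlap numbered 18 of 50 in untreated mice, 14 of them with R6/2 lower (background 26.2%, 12.3% lower), and 13 of 50 in treated mice, 11 with R6/2 lower (background 16.8%, 8.17% lower). The 2 genotype comparisons share no array, and 30 of the 50 kinase estimates had the same sign in both, compared with 57.2% over all kept probe sets. Of the 50, 25 were below 0 in both, compared with 1744 of 7453 over all kept probe sets. Array 3 was the lowest of the 4 untreated R6/2 arrays for 24 of the 50 and the highest for 11, array 4 was the lowest for 4 and the highest for 24, array 1 for 13 and 8, and array 2 for 9 and 7. Without arrays 2 and 3 the untreated median was -0.12.

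**Figure D4:**
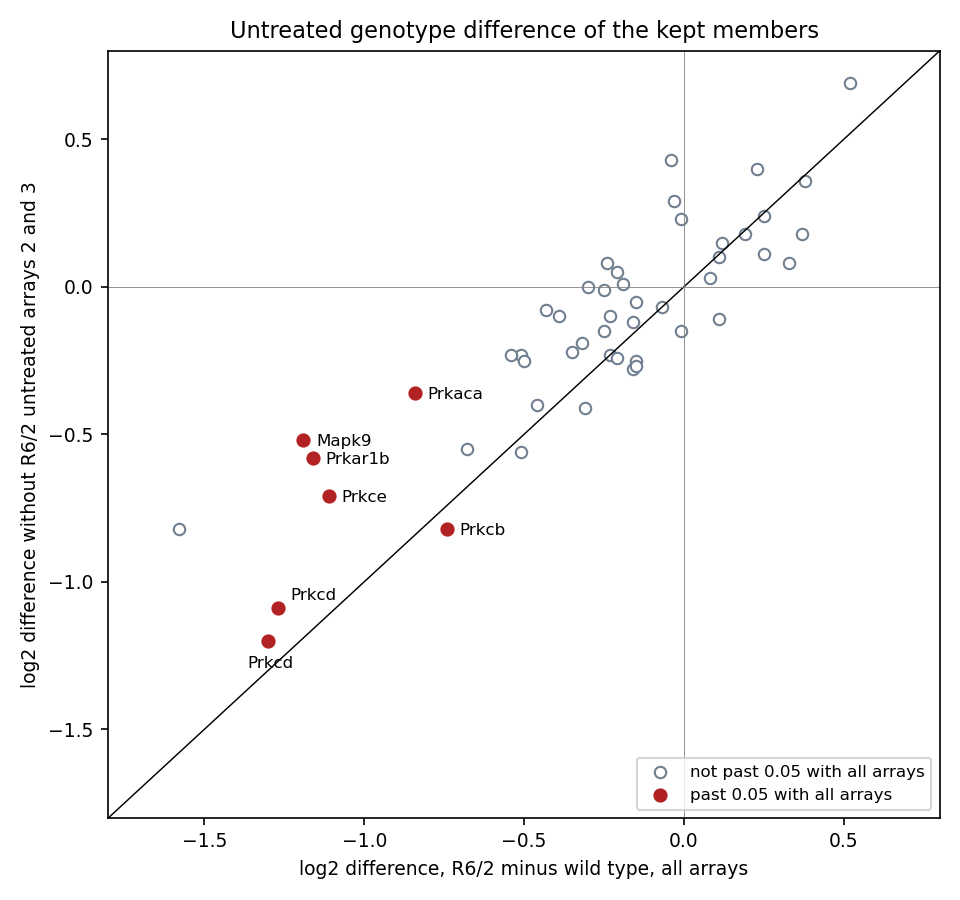
Untreated log2 difference between R6/2 and wild type mice of the 50 kept probe sets with all arrays (horizontal axis) and without untreated R6/2 arrays 2 and 3 (vertical axis); the diagonal marks equal values and filled points passed with all arrays. Prkcd and Prkcb lie near the diagonal, while Prkce, Prkar1b, Prkaca and Mapk9 lie above it, at -0.71, -0.58, -0.36 and -0.52 on the vertical axis.

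The triple treatment moved no kinase probe set past the threshold in R6/2 mice (0 of 50, background 0.0% of 7453). At an unadjusted p under 0.05 there were 6 of 50 (16.9% of all kept probe sets), and 6 had groups without overlap (10.6% of all). The median was 0.09 on the log2 scale and -0.02 without untreated R6/2 arrays 2 and 3. The 5 smallest p-values belonged to Mapkapk2 (0.50 ± 0.16), Prkce 94161_at (0.72 ± 0.23), Map2k3 93314_g_at (0.40 ± 0.14), Map3k8 161768_r_at (0.53 ± 0.21) and Map2k1 (-0.34 ± 0.14), with adjusted p from 0.247 to 0.26. Across the alternative settings and left-out arrays, Mapkapk2 ran from 0.27 to 0.60 and Prkce 94161_at from 0.32 to 0.88. Those of Map2k3, Map3k8 and Map2k1 ran from 0.27 to 0.53, 0.37 to 0.62 and -0.43 to -0.20. For Mapkapk2, treated R6/2 mice had 176.6, 153.4 and 170.5 against 134.6, 117.6, 84.6 and 141.7 in untreated R6/2 mice. These groups did not overlap, and array 3 was again the lowest. For Prkcd the treatment differences in R6/2 mice were 0.15 ± 0.15 and 0.24 ± 0.14 on its 2 probe sets.

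In wild type mice the treatment passed for 0 of 50 as well (background 0.0%), with 3 of 50 at an unadjusted p under 0.05 (10.3% of all) and 13 of 50 without overlap (21.8% of all). Prkca had the smallest p, reading 54.3, 75 and 81.5 in treated wild type mice against 99.9, 95.5 and 103.6 in untreated wild type mice. Its groups did not overlap, and the difference was -0.52 ± 0.17 (adjusted p = 0.329). Map2k4 read 155.3, 248.3 and 185 in treated wild type mice, against 269.8, 260.6 and 278.4 in untreated wild type mice, a difference of -0.49 ± 0.18 (adjusted p = 0.38) without overlap. Next came Map4k4 (0.27), Prkcb 99510_at (0.26) and Mapk8ip1 104170_at (0.40), with adjusted p of 0.475 to 0.505.

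**Figure D5:**
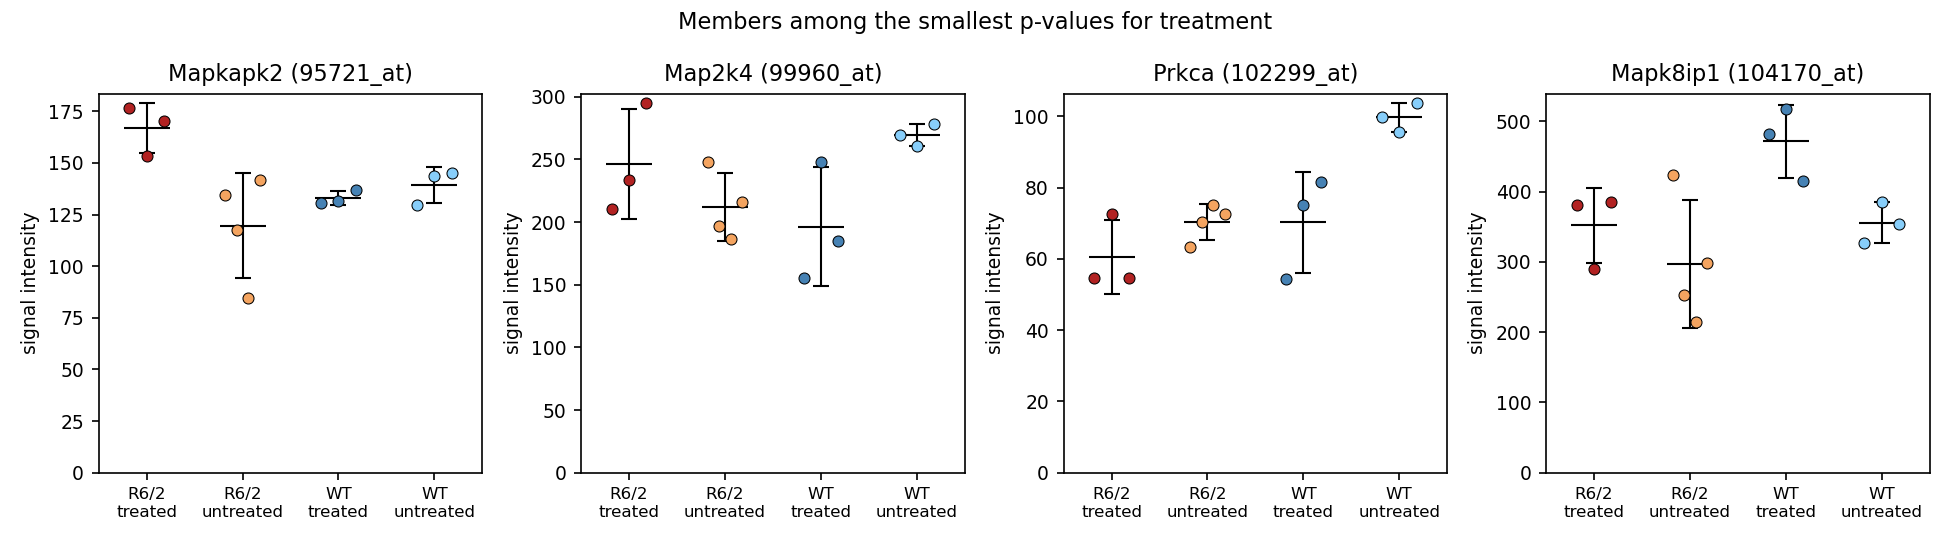
Signal intensity by array of 4 of the kinase probe sets with the smallest p-values for treatment; points are arrays, lines are group means and bars are SD. Treated and untreated points do not overlap for Mapkapk2 in R6/2 mice, and for Map2k4, Prkca and Mapk8ip1 in wild type mice, and none of these differences passed the threshold.

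The interaction asks whether treatment acted differently in R6/2 and in wild type mice. It passed for 0 of 50 kinase probe sets (background 0.0%), with 10 at an unadjusted p under 0.05 (13.5% of all). The smallest p-values were for Map2k4 (0.70 ± 0.24), Prkar1b 101927_at (1.19 ± 0.43), Prkcb 99510_at (-0.47 ± 0.17), Map3k8 161768_r_at (0.81 ± 0.30) and Prkag1 (0.84 ± 0.32), with adjusted p of 0.315 and 0.316. Across the alternatives Prkar1b 101927_at ran from 0.62 to 1.42 and Prkag1 from 0.57 to 0.97. Those of Map2k4, Prkcb 99510_at and Map3k8 ran from 0.54 to 0.88, -0.54 to -0.35 and 0.56 to 0.93. Averaged over genotype, treatment also passed for 0 of 50 (background 0.0%, 4 of 50 at an unadjusted p under 0.05 against 12.6% of all), with Prkca first at -0.38 (adjusted p = 0.27), followed by Mapk8ip1 (0.34), Map2k1 (-0.24), Map2k3 (0.22) and Mapkapk2 (0.22).

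Genes that surround these kinases were read from 6 lists. Over all kept probe sets 11.9% were called in untreated mice (6.41% lower) and 0.792% in treated mice. The lists were chosen with earlier results of these data known, so setting their counts against these shares is no test. The list counts are of genes with at least 1 probe set called, whereas the shares are of probe sets. Of the genes that set the cascade going, Ras exchange factors and Raf partners, 9 of 17 listed were tested, 3 fell and 1 rose in untreated R6/2 mice. Rasgrp2, a calcium-regulated activator of Rap abundant in striatum, differed by -1.25 (adjusted p = 0.00301) in untreated mice and by -1.07 (adjusted p = 0.0263) in treated mice. The other calls were in untreated mice alone, Rasgrp1 and the scaffold Ksr1 at -0.86 and -0.82, and the Ras GTPase-activating gene Rasa1 at 0.68. Without arrays 2 and 3 Rasgrp2 kept its call (-0.93, adjusted p = 0.00208) and Rasgrp1, Ksr1 and Rasa1 did not (-0.56, -0.57 and 0.44, adjusted p 0.125 to 0.196).

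A pair of the phosphatases that switch MAP kinases off fell in both treatment states. They were 2 of the 5 tested genes of 12 listed. Dusp1 differed by -0.83 (adjusted p = 0.00511) in untreated and -0.95 (adjusted p = 0.00853) in treated mice, and Dusp6, which acts on ERK, by -0.87 (adjusted p = 0.00428) and -0.83 (adjusted p = 0.0196). Both passed without untreated R6/2 arrays 2 and 3 as well, at -0.97 and -0.87. Of the kinases downstream of MAP kinases, 2 of 8 listed genes were tested and neither passed for genotype in untreated or in treated mice. With the genotype difference averaged over treatment, 1 of the 3 tested probe sets fell, against 4.04% of all kept probe sets lower. The smallest untreated p was for Mknk2 (-0.72 ± 0.25, adjusted p = 0.0727) and the smallest treated p for its other probe set (-0.45 ± 0.17, adjusted p = 0.372).

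Substrates and partners of PKC gave 2 falls and 1 rise among 9 tested genes of 17 listed in untreated mice, and none in treated mice. Nrgn, a calmodulin-binding postsynaptic substrate, differed by -1.66 ± 0.33 (adjusted p = 0.0105), and by -0.95 (adjusted p = 0.0354) without arrays 2 and 3. Plcb1, a phospholipase that produces diacylglycerol, differed by -1.08 and -0.90 on 2 of its 3 probe sets (adjusted p = 0.0109 and 0.028). Without arrays 2 and 3 these were -1.28 (adjusted p = 0.0131) and -0.89 (adjusted p = 0.124). Marcks, a membrane-bound PKC substrate, rose by 0.52 (adjusted p = 0.0333), or 0.31 (adjusted p = 0.221) without the 2 arrays. The smallest treated p in this list was for Marcks (0.58 ± 0.15, adjusted p = 0.124).

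Among PKA anchors and inhibitors 1 of 7 tested genes of 16 listed fell in untreated mice and none passed in treated mice. It was Akap8, a nuclear anchor, at -0.97 ± 0.26 on 1 of its 3 probe sets (adjusted p = 0.0304, and -1.14 with adjusted p = 0.0809 without arrays 2 and 3), while the other two stood at -0.01 and 0.08. Of transcription factors that PKA or MAP kinases phosphorylate, 1 of 8 tested genes of 14 listed fell in untreated mice and none passed in treated mice. This was Mef2c, a neuronal transcription factor, with log2 differences of -1.24, -1.11, -0.72 and -0.49 on 4 probe sets. Without arrays 2 and 3 they were -0.99, -0.59, -0.50 and -0.44, of which -0.99 and -0.59 passed (adjusted p = 0.0037 and 0.0247) and the others did not (adjusted p = 0.063 and 0.155). With the genotype difference averaged over treatment, 2 of the 8 tested transcription factor genes fell, on 4 of 11 probe sets. The share of all kept probe sets lower in that average was 4.04%. No gene of the 6 lists passed for treatment in either genotype.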

How the data were processed

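The deposited values are signal intensities on a linear scale, 1 per probe set and array, and the authors' software and normalization are not given in the sources used here. Each array's mean after trimming 2% at each end was about 100. Arrays have no read depth, so precision rests on the number of arrays. A floor of 3.1 (the 10th percentile over all arrays) was applied before the log2 step. No further normalization was applied, since no array median lay more than 6.73% from the mean of the medians (limit 10%).

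The 66 control probe sets were left out, and the 7453 of 12422 gene probe sets with a mean log2 at or above the 40th percentile were kept. Genes came from the platform annotation, in which 10833 probe sets had 1 gene, 396 several and 1193 none. All 72 kinase probe sets matched a RefSeq gene of the same symbol. Of them 55 carry the plain _at suffix, and the s, f, i, r and g suffixes of the others mark probe sets that can share sequence with other transcripts or use relaxed design rules, so their values are less specific.

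Group means were fitted to all 13 arrays with limma 3.58.1 in R 4.3.3 (lmFit, eBayes with a trend, two-sided), with Benjamini-Hochberg adjustment over the 7453 probe sets and a threshold of 0.05. The fit was tested on simulated data. The 7 comparisons were genotype in each treatment state, treatment in each genotype, their interaction and both averages. The untreated genotype comparison and the R6/2 treatment comparison share the untreated R6/2 arrays, and other pairs share arrays likewise. Differences are R6/2 minus wild type and triple treatment minus untreated, ± SE.

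Named were, per comparison, all kinase probe sets past the threshold or, where under 5 passed, the 5 with the smallest p, the other tested probe sets of the same genes, and the brightest of each family. Differences of probe sets below the filter, some of them of named genes, are not given. Of the lists, members that passed for genotype in untreated or in treated mice were named, or the 1 with the smallest p. List members that passed only in the average over treatment were counted and not named. The members, families and lists were chosen with earlier results of these data known. Alternatives changed the floor, the offset, the filter, the normalization, the array weights, the eBayes options and the arrays included. The lot number in each sample's description equals the number in its title except for treated R6/2 array 1, whose description gives the lot number of untreated R6/2 array 4. Groups followed the titles.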

Additional observations from a re-analysis of the deposited data

Results flagged for a closer look

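In 2 of the 50 kinase probe sets, 1 of the 4 untreated R6/2 arrays lay far from the other 3, by a gap that exceeded Dixon's critical value as a share of the group's range. Chance alone flags about 1 in 20 such groups. Map3k7 160854_at read 31.3 on array 4, against 25.7, 26.5 and 25.7 on the others (gap over range 0.857). Prkcz 161964_r_at read 191.7 on array 1, against 131.5, 122.8 and 132.8 on the others (0.855).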

How the results depend on the processing

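For the untreated genotype comparison 7 kinase probe sets passed. The count was 11 with log2(value + 16) and no floor, 4 without the filter on dim probe sets, 3 without untreated R6/2 arrays 2 and 3, and 4 with only the arrays of these groups in the fit. Leaving out 1 array gave 4 to 12, with 12 without untreated R6/2 array 1, 11 without untreated R6/2 array 4 and 4 without untreated wild type array 2 or 3. The treated genotype count of 4 was 2 to 4 when 1 array was left out, with 2 without treated wild type array 1 or 2 or treated R6/2 array 1 or 3, and 3 to 4 otherwise. The genotype count averaged over treatment, 5, was 11 with array weights and 4 to 8 when 1 array was left out, with 8 without untreated R6/2 array 4. The causes of these changes were not tested. Treatment and interaction counts were 0 kinase probe sets under every alternative run. Among 871 values of the named kinase probe sets under alternatives, 818 kept direction and side of the threshold, 53 kept direction and lost the call, and none reversed. The 818 include all values of the named probe sets that had not passed, which kept their side by staying uncalled. All 53 losses were of genotype calls, so the pooled count says little of how stable these calls were. Of the 43 other kinase probe sets in the untreated genotype comparison, 8 passed in at least 1 alternative, most often Prkar1a (higher in R6/2 mice, 6 of 24), Prkag1, Prkca (5 of 24 each) and Prkcz 96571_at (5 of 23), with their direction kept, and 11 of 45 did so in the average over treatment. No paired analysis was possible because the labels give no replicate numbers shared between groups.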
